A study of Homo sapiens with 6 samples.

Results

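RNA levels of 43 genes of the lysosome and of autophagy were read from a count table of 26485 genes, by gene symbol, in 6 RNA-seq libraries of HCC38, a human breast cancer cell line that the labels class as basal-like and triple negative. CIP2A, an endogenous inhibitor of the phosphatase PP2A, had been silenced with 3 different siRNAs, each represented by 1 library: siCIP2A#1, siCIP2A#2 and siCIP2A#3. They were set against 3 control libraries: SCR#2 and SCR#3, which received non-targeting siRNAs, and a mock, which the sample label describes as given transfection reagent without siRNA and the design text as a control without transfection. The reagent was Oligofectamine, and libraries were prepared from mRNA with a stranded TruSeq kit. No time after transfection is given in the sources used here. The labels do not tie the libraries to separate cultures, and every p-value here rests on the scatter among these 6 libraries, which may be technical. All 43 symbols were found, and 42 passed the filter on low counts. The exception was MITF, with counts of 22, 2 and 7 in siCIP2A#1, siCIP2A#2 and siCIP2A#3 and 10, 6 and 8 in mock, SCR#2 and SCR#3, which was listed but not tested.

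Lysosomes degrade proteins, glycans and lipids with acid hydrolases, in a lumen that the proton pump V-ATPase keeps acidic. Autophagy delivers cytoplasm to them in membranes built by the ULK1 and BECN1 complexes and marked by lipid-linked ATG8 proteins such as LC3. The transcription factors TFEB, TFE3 and MITF bind E-box elements in the promoters of many of these genes, and CIP2A has itself been placed at the crossing of PP2A, mTORC1 and autophagy.

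The letters that these factors read are present in some of the 43 promoters. RefSeq promoter windows of GRCh38.p14, spanning 250 bases before to 50 after 1 start per gene, were matched for 35 of the 43 genes. For some genes, such as ATG5, that window lay inside the annotated gene. Windows at other starts were not searched. PSAP, CTSB, HEXA, ASAH1, LAMP2, ATP6V1A, ATP6V1H and UVRAG had no entry in that table. The E-box CACGTG, a palindrome that reads the same on both strands, was in 8 of the 35 windows (22.9%), against 7.43% of all 27305 windows and 10.2% of those of tested genes. Its extension TCACGTGA was in 5 windows (14.3%), against 1.04% of all windows and 1.91% of those of tested genes, and that extension with a further G before it and a C after it in 2 (5.71%), against 0.381% and 0.751%. The longer words are palindromes too, and each contains the shorter ones. The 5 windows that hold TCACGTGA are shown because they carry the fullest matches to the element that TFEB binds, with each E-box in capitals and the capitals extended where the longer letters match.
CTSA (chr20:45891273-45891335, plus strand): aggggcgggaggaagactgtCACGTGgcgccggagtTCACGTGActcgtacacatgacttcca
GAA (chr17:80101485-80101575, plus strand): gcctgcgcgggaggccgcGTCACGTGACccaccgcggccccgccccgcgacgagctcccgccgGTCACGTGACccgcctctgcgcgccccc
LAMP1 (chr13:113297027-113297263, plus strand): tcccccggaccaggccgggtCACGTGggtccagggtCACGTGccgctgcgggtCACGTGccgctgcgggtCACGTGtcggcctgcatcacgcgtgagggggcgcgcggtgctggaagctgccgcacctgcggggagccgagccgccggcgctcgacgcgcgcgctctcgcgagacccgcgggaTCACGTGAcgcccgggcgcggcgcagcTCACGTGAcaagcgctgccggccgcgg
MCOLN1 (chr19:7522563-7522635, plus strand): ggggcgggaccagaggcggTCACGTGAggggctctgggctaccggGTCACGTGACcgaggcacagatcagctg
ATP6V0D1 (chr16:67481191-67481236, minus strand): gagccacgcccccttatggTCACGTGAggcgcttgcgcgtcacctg
LAMP1 held 6 E-boxes, and both E-boxes of GAA lay within the longest word. CTSD, NEU1 and CD63 held a single CACGTG without the extension. A match describes letters and not a bound site, and the search bears on these windows alone. E-box here means CACGTG alone. Other words that the name covers were not searched, so a window without CACGTG may hold one.

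Total counts were 18161451, 15547526 and 16929828 in siCIP2A#1, siCIP2A#2 and siCIP2A#3, against 13995187, 17116379 and 14743781 in mock, SCR#2 and SCR#3. Levels are given as CPM, counts scaled to the TMM-adjusted library total, on which a count of 3 stood for 0.162 to 0.218 CPM. CIP2A, at 16.3, 45.8 and 19.3 CPM in siCIP2A#1, siCIP2A#2 and siCIP2A#3 and at 98.8, 99.7 and 103 CPM in mock, SCR#2 and SCR#3, was lower in each silenced library than in any control. Its log2 difference from the controls was -2.62 with siCIP2A#1, -1.13 with siCIP2A#2 and -2.38 with siCIP2A#3 (edgeR adjusted p = 2.41e-04, 0.0165 and 4.68e-04), so siCIP2A#2 left the most CIP2A RNA. Of 10 leukocyte and macrophage markers 1 passed the filter, PTPRC, TYROBP and MS4A1 were at 0, and their summed level was 2.58 to 3.73 CPM in siCIP2A libraries and 3.10 to 4.54 CPM in controls. Lysosomal genes that macrophages also express, such as CD68, were therefore read in libraries close to free of those markers. Of 8 breast epithelial markers 4 passed the filter, with KRT14 at 0. The 8 summed to 648 to 1148 CPM in siCIP2A libraries and 719 to 949 CPM in controls. Of 7 fibroblast markers 3 passed, and the 7 summed to 6.54 to 18.8 CPM in siCIP2A libraries and 6.71 to 8.47 CPM in controls. Of 4 endothelial markers 3 passed, with CDH5 at 0. Their sum was 7.12 to 13.6 CPM in siCIP2A libraries and 7.49 to 10.8 CPM in controls.

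Per kilobase of exon, a scale that allows a rough comparison between genes, the order in the controls ran from PSAP to MITF. The length joins all annotated exons of a gene, which can exceed the transcript expressed, so the order depends partly on the annotation. PSAP stood at 357 ± 17.1 CPM per kb, SQSTM1 at 332 ± 35.1 and CD63 at 307 ± 11.4 (SD, n = 3 controls), and the control libraries of these neighbours overlapped. A gap then separated CD63 from CTSA, at 104 ± 5.41 CPM per kb. At the low end UVRAG stood at 6.87 ± 0.762, TFEB at 0.783 ± 0.101 and MITF at 0.0884 ± 0.0309 CPM per kb. Of the 42 pairs of neighbours in this order, 35 overlapped in their control libraries and 7 did not.

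**Figure D1:**
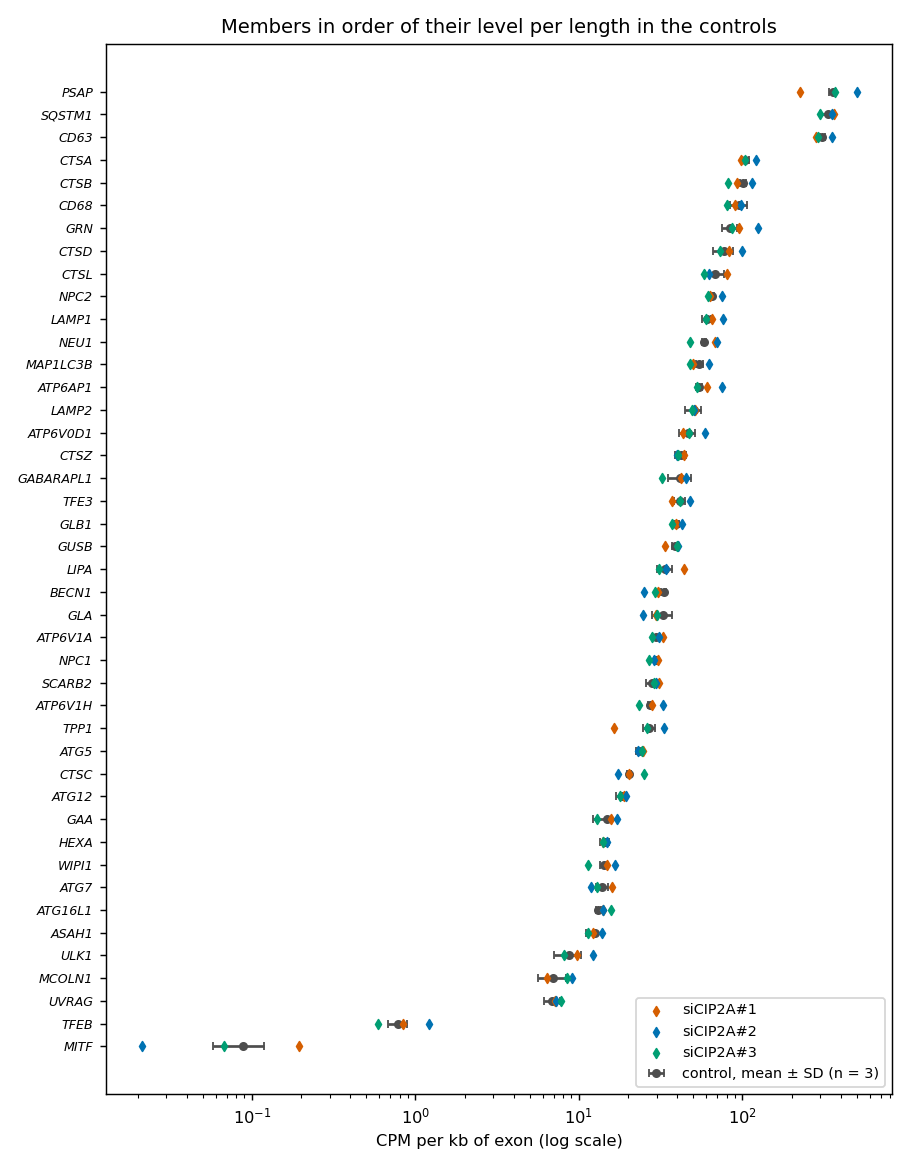
Level of each of the 43 genes in CPM per kb of exon (log axis), with the 3 silenced libraries as diamonds and the controls as mean ± SD (n = 3), ordered by the control level. PSAP leads at 357 CPM per kb in the controls, and its siCIP2A#1 and siCIP2A#2 diamonds lie on opposite sides of that value.

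The main question of the design is which RNAs differ between silenced and control libraries. For the lysosome and autophagy genes the differences of the group were small. With edgeR no member passed an adjusted p of 0.05 for siCIP2A against control, where the share of all 13562 tested genes called was 0%. CIP2A itself did not pass this test, at a log2 difference of -1.90 (SE 0.298, edgeR adjusted p = 0.7075). The test takes the 3 siRNAs, which left unlike levels of CIP2A RNA, as replicates. The lack of a call in it therefore does not show that a member was unchanged. At an unadjusted p under 0.05 there was 1 member, BECN1, against 2.72% of all genes, and DESeq2 and limma-voom called no member either. The log2 differences of the members lay between -0.23 (BECN1) and 0.27 (GRN). Of 42, 27 were above 0, with a median of 0.03, against 49.7% and a median of -0.0011 over all tested genes. Without siCIP2A#2, 16 of 42 were above 0, with a median of -0.04, so this count depended on that library. All 3 siCIP2A libraries lay above all controls for 1 member, ATG16L1 (2.38%, against 3.25% of all genes), and below them for 1, BECN1 (2.38%, against 4.39%). With 3 libraries against 3, an exact two-sided permutation test cannot give a p below 0.10.

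Each siRNA was compared with the same 3 controls, and its 1 library was assumed to vary as the controls do. With siCIP2A#1, 24 of 42 members were above 0 (median log2 difference 0.04, against -0.0063 over all genes), and 1 member, PSAP, passed the test as lower, beside 0.118% of all genes called in either direction and 0.059% called lower. At an unadjusted p under 0.05, 1 member was higher and 2 were lower with siCIP2A#1, against 9.95% of all genes in either direction. With siCIP2A#2, 34 of 42 were above 0 (81.0%, against 49.4% of all genes; median 0.13, against -0.003). With siCIP2A#3, 10 of 42 were above 0 (23.8%, against 48.0% of all genes; median -0.08, against -0.0091). With siCIP2A#2 and siCIP2A#3 edgeR called no member, where 0.0737% and 0.00737% of all genes were called. At an unadjusted p under 0.05, siCIP2A#2 gave 12 members higher and 2 lower, against 5.38% and 6.21% of all genes, and siCIP2A#3 gave 2 higher and 2 lower, against 2.99% and 5.24%. DESeq2 called 2 members with siCIP2A#2, PSAP and GRN, and 0 with siCIP2A#3, and limma-voom called 0 with either. Over all genes DESeq2 also called more than edgeR with each of these siRNAs, with the counts given at the end.

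**Figure D2:**
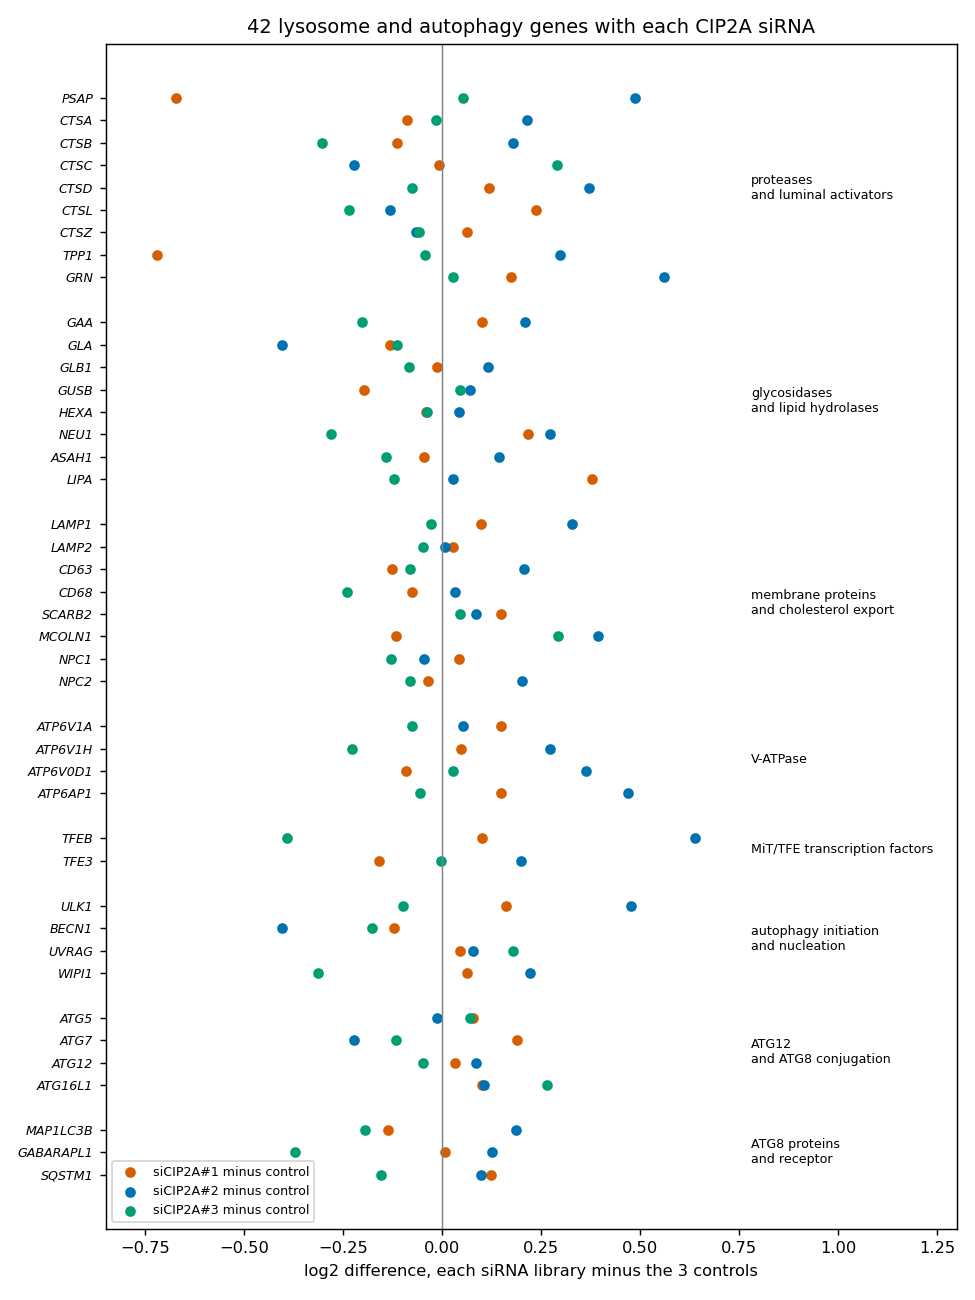
Log2 difference of each of the 42 tested genes between 1 silenced library and the 3 controls, in 8 role classes, with 1 point per siRNA. PSAP and TPP1 lie at -0.67 and -0.72 with siCIP2A#1 and at 0.49 and 0.30 with siCIP2A#2, and most siCIP2A#2 points lie right of 0.

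Counted by library, siCIP2A#1 lay above all 3 controls for 12 members and below them for 9 (26.5% and 28.9% of all genes did). For siCIP2A#2 the counts were 23 above and 5 below (28.6% and 30.7% of all genes). For siCIP2A#3 they were 5 above and 17 below (25.7% and 28.6% of all genes). Among the 3 silenced libraries siCIP2A#2 was the highest for 27 members (35.2% of all genes) and siCIP2A#3 the lowest for 25 (36% of all genes).

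**Figure D3:**
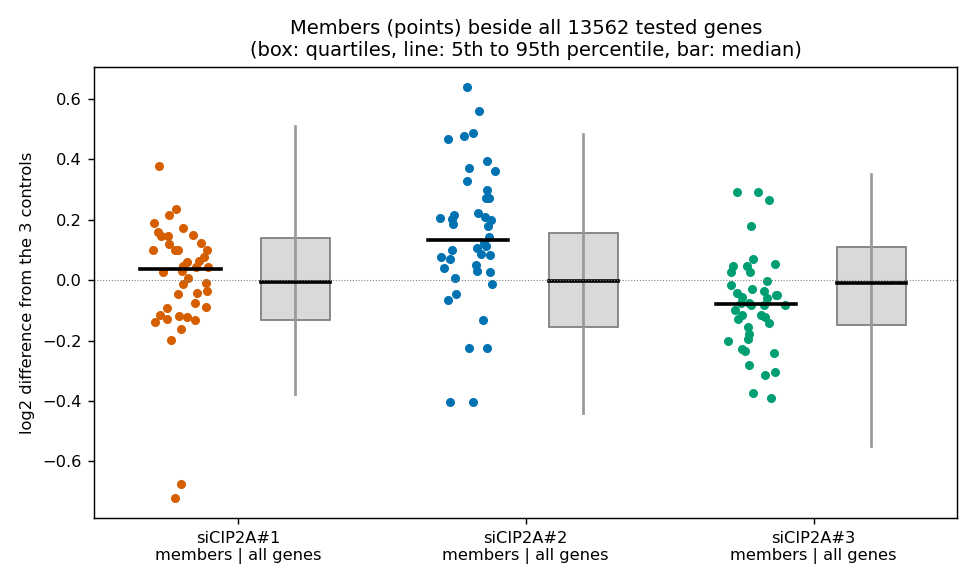
Log2 differences from the 3 controls for the 42 tested members (points, black bar at the median) beside all 13562 tested genes (box at the quartiles, line from the 5th to the 95th percentile), for each siRNA. The member medians are 0.04, 0.13 and -0.08 with siCIP2A#1, siCIP2A#2 and siCIP2A#3, while all 3 medians over all genes lie within 0.01 of 0.

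PSAP encodes prosaposin, the precursor of the saposins that activate sphingolipid hydrolases, and lies at chr10:71816298-71851375 on the minus strand (GRCh38). It stood at 644, 1440 and 1066 CPM in siCIP2A#1, siCIP2A#2 and siCIP2A#3, against 1046, 972 and 1066 CPM in mock, SCR#2 and SCR#3. The siCIP2A#1 library was the lowest of the 6 and siCIP2A#2 the highest, while siCIP2A#3 lay at the level of the controls. PSAP fell with siCIP2A#1 by 0.67 on the log2 scale (SE 0.09, edgeR adjusted p = 0.0493), which is 0.627 times the control level. The call was lost with RLE factors and with a stricter filter (adjusted p = 0.0522 with each), and kept in the other 8 of 10 alternatives. With siCIP2A#2 the log2 difference was 0.49 (SE 0.09, edgeR adjusted p = 0.140), called in 5 of 10 alternatives, and with siCIP2A#3 it was 0.05. The alternatives for a single siRNA include fits with 1 residual degree of freedom, which called more of all genes, as given at the end. As group means PSAP stood at 1050 ± 398 CPM in siCIP2A libraries and 1028 ± 49.3 CPM in controls (SD, n = 3 each).

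The siRNAs were also compared with each other. PSAP was lower with siCIP2A#1 than with siCIP2A#2 by a log2 difference of -1.16 (SE 0.11, edgeR adjusted p = 0.0302), where 0.0147% of all genes were called. The other gene called there was CIP2A, at -1.49 (SE 0.15, edgeR adjusted p = 0.0302), so these siRNAs also differed in CIP2A RNA. Against siCIP2A#3 the PSAP difference of siCIP2A#1 was -0.73 (SE 0.11, edgeR adjusted p = 0.0414), where 0.509% of all genes were called. Both PSAP calls were kept in all 10 alternatives run for them. By edgeR, PSAP was the only member called in either comparison. DESeq2 called 2 members in each, and it also called more of all genes than edgeR did, with the counts given at the end. Between siCIP2A#2 and siCIP2A#3 edgeR called no member, where the share of all genes called was 0%. In that last comparison 15 members were higher and 1 lower at an unadjusted p under 0.05 (8.24% and 7.37% of all genes), and DESeq2 and limma-voom called no member. These 3 comparisons rest on 1 library a side, with the spread taken from the controls.

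TPP1, tripeptidyl peptidase 1, a serine protease of the lysosomal lumen (chr11:6612763-6619485, minus strand), had a pattern close to that of PSAP. It stood at 76.5, 155 and 122 CPM in siCIP2A#1, siCIP2A#2 and siCIP2A#3, against 114, 137 and 127 CPM in mock, SCR#2 and SCR#3. The siCIP2A#1 library was again the lowest of the 6 and siCIP2A#2 the highest, with siCIP2A#3 inside the control range. Its log2 difference was -0.72 with siCIP2A#1 (SE 0.13, edgeR adjusted p = 0.0915), which did not pass, though it was called in 6 of 10 alternatives, among them DESeq2 (adjusted p = 0.00161). Here too the alternatives include the fits with 1 residual degree of freedom, which called more of all genes. With siCIP2A#2 the log2 difference of TPP1 was 0.30 (SE 0.12) and with siCIP2A#3 -0.04. Between siCIP2A#1 and siCIP2A#2 the difference was -1.02 (SE 0.15, edgeR adjusted p = 0.0842).

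GRN encodes progranulin, which binds prosaposin and is cut into granulins in lysosomes (chr17:44345086-44353102, plus strand). It stood at 222, 290 and 201 CPM in siCIP2A#1, siCIP2A#2 and siCIP2A#3, against 222, 184 and 185 CPM in mock, SCR#2 and SCR#3. The siCIP2A#2 library was above all others, and siCIP2A#1 and the mock were level. The log2 difference was 0.56 with siCIP2A#2 (SE 0.12, edgeR adjusted p = 0.212), 0.17 with siCIP2A#1 and 0.03 with siCIP2A#3. It passed with siCIP2A#2 under DESeq2 (adjusted p = 0.0433). For siCIP2A against control it was 0.27 (SE 0.13, edgeR adjusted p = 0.999).

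The cathepsins, the main lysosomal proteases, did not share a direction. CTSB, a cysteine protease on chromosome 8, stood at 386, 474 and 339 CPM in siCIP2A#1, siCIP2A#2 and siCIP2A#3, against 400, 431 and 425 CPM in mock, SCR#2 and SCR#3. Its siCIP2A#3 library was the lowest of the 6 and siCIP2A#2 the highest, and the siCIP2A#3 difference was -0.30 (SE 0.09, edgeR adjusted p = 0.497). CTSC, a dipeptidyl peptidase that activates serine proteases of immune granules, had 154, 133 and 190 CPM in siCIP2A#1, siCIP2A#2 and siCIP2A#3, against 155, 160 and 150 CPM in mock, SCR#2 and SCR#3. Here siCIP2A#3 was the highest and siCIP2A#2 the lowest, the opposite of CTSB, and the siCIP2A#3 difference was 0.29 (SE 0.10, edgeR adjusted p = 0.534). CTSD, the aspartic protease, was at 0.12, 0.37 and -0.08 on the log2 scale with siCIP2A#1, siCIP2A#2 and siCIP2A#3, and CTSL at 0.24, -0.13 and -0.24. CTSA, which shields NEU1 and GLB1 from degradation, was at -0.09, 0.22 and -0.02, and CTSZ stayed within 0.07 of 0 with each.

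Among the hydrolases of glycans and lipids no gene passed the test in any comparison. LIPA, the acid lipase that frees cholesterol from its esters (chr10:89213569-89414557, minus strand), stood at 134, 105 and 94.9 CPM in siCIP2A#1, siCIP2A#2 and siCIP2A#3, against 90.7, 107 and 112 CPM in mock, SCR#2 and SCR#3. The siCIP2A#1 library was above all others, the reverse of PSAP and TPP1 in that library, with a log2 difference of 0.38 (SE 0.13, edgeR adjusted p = 0.353). NEU1, the lysosomal sialidase (chr6:31857659-31862906, minus strand), had 138, 144 and 98.0 CPM in siCIP2A#1, siCIP2A#2 and siCIP2A#3, against 123, 119 and 115 CPM in mock, SCR#2 and SCR#3. The first 2 of these silenced libraries were above every control and siCIP2A#3 below them. Its differences were 0.22, 0.27 and -0.28 with siCIP2A#1, siCIP2A#2 and siCIP2A#3 (SE 0.10 with siCIP2A#3; edgeR adjusted p = 0.530, 0.371 and 0.571). GLA, alpha-galactosidase A (chrX:101397803-101408012, minus strand), had 42.7, 35.4 and 43.3 CPM in siCIP2A#1, siCIP2A#2 and siCIP2A#3, against 46.6, 53.2 and 40.5 CPM in mock, SCR#2 and SCR#3. Its siCIP2A#2 library was the lowest of the 6, at -0.40 (SE 0.16, edgeR adjusted p = 0.402), while the groups overlapped. The glucosidase GAA, the galactosidase GLB1, the glucuronidase GUSB, the hexosaminidase subunit HEXA and the ceramidase ASAH1 lay between -0.20 and 0.21 with every siRNA.

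**Figure D4:**
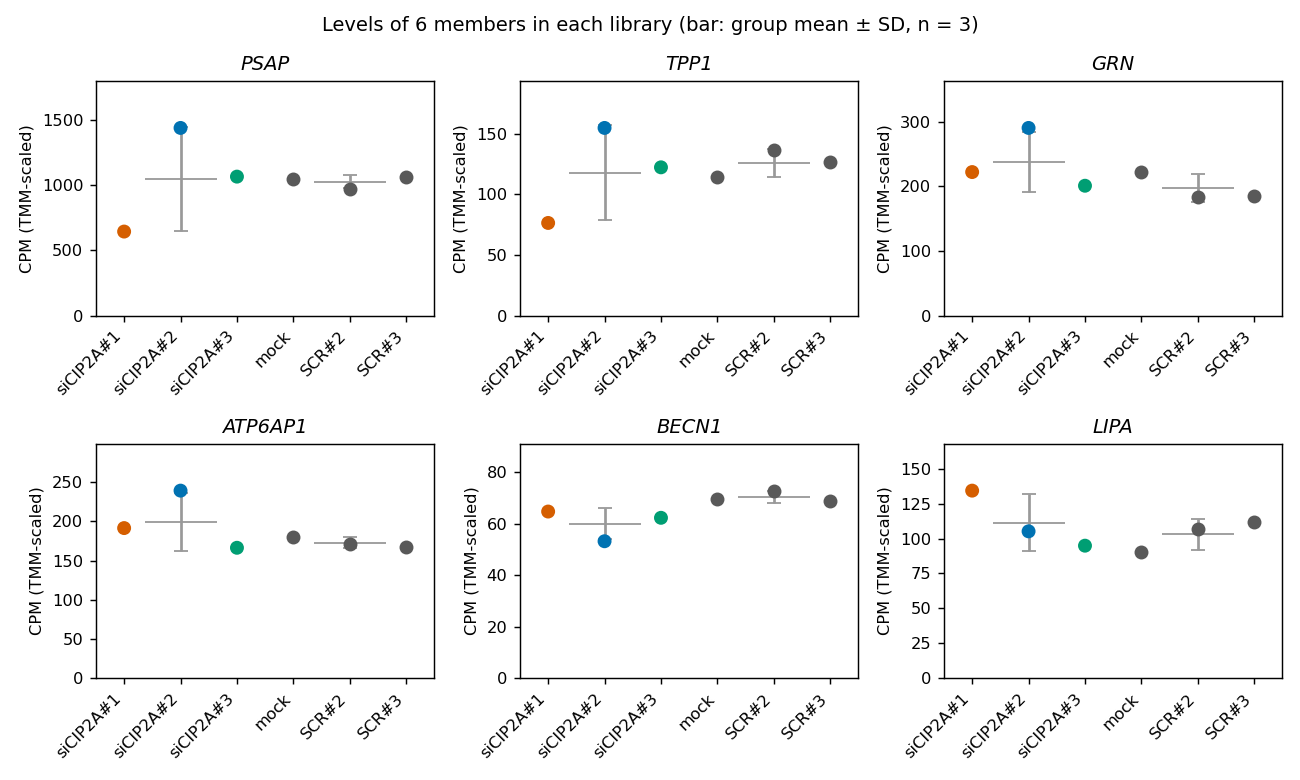
CPM of PSAP, TPP1, GRN, ATP6AP1, BECN1 and LIPA in each of the 6 libraries, with the mean ± SD of the 3 silenced and the 3 control libraries in grey (n = 3 each). PSAP reads 644, 1440 and 1066 CPM in siCIP2A#1, siCIP2A#2 and siCIP2A#3, while its controls lie between 972 and 1066 CPM.

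Proteins of the lysosomal membrane and of cholesterol export gave mostly small differences. LAMP1, an abundant membrane glycoprotein, was at 0.10, 0.33 and -0.03 with siCIP2A#1, siCIP2A#2 and siCIP2A#3, and its relative LAMP2 stayed within 0.05 of 0 with each. MCOLN1, the lysosomal calcium channel TRPML1, was at -0.12, 0.39 and 0.29 at a low level, with 13.3, 19.0 and 17.7 CPM in siCIP2A#1, siCIP2A#2 and siCIP2A#3 and 17.8, 13.2 and 12.5 CPM in mock, SCR#2 and SCR#3. In MCOLN1 the mock was as high as siCIP2A#3 and stood apart from the other controls. The tetraspanin CD63 was at -0.13, 0.21 and -0.08, and CD68 at -0.08, 0.03 and -0.24. SCARB2, which carries glucocerebrosidase to lysosomes, was at 0.15, 0.09 and 0.05, above 0 with each siRNA. Its mock was low, at 164 CPM, against 190 and 192 CPM in SCR#2 and SCR#3. Its siCIP2A#3 library, at 188 CPM, lay below both non-targeting libraries. NPC1 and NPC2, which pass cholesterol out of the lysosome, lay between -0.13 and 0.20.

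All 4 genes of the V-ATPase were above 0 with siCIP2A#2, with a median log2 difference of 0.32, and none passed the test. ATP6AP1, an accessory subunit of the pump (chrX:154428632-154436516, plus strand), stood at 191, 239 and 166 CPM in siCIP2A#1, siCIP2A#2 and siCIP2A#3, against 181, 171 and 167 CPM in mock, SCR#2 and SCR#3. The siCIP2A#2 library was above all others, siCIP2A#1 lay above the controls by less, and siCIP2A#3 was level with the lowest control. Its differences were 0.15, 0.47 and -0.06 with siCIP2A#1, siCIP2A#2 and siCIP2A#3 (SE 0.10 and edgeR adjusted p = 0.192 with siCIP2A#2). ATP6V0D1, of the membrane sector, was at -0.09, 0.36 and 0.03. The subunits of the catalytic sector were at 0.15, 0.05 and -0.08 for ATP6V1A and at 0.05, 0.27 and -0.23 for ATP6V1H.

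Of the transcription factors, TFEB had 3.73, 5.42 and 2.65 CPM in siCIP2A#1, siCIP2A#2 and siCIP2A#3, against 3.78, 2.98 and 3.73 CPM in mock, SCR#2 and SCR#3. Again siCIP2A#2 was the highest library and siCIP2A#3 the lowest, with log2 differences of 0.10, 0.64 and -0.39 on counts of 45 to 84. The siCIP2A#2 value had an SE of 0.24 and an edgeR adjusted p of 0.371. TFE3, the most abundant of the 3 factors per length, was at -0.16, 0.20 and -0.00. Their activity depends on phosphorylation and nuclear entry, which RNA counts do not measure.

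In autophagy initiation, BECN1, the scaffold of the lipid kinase complex that starts the phagophore (chr17:42810134-42833350, minus strand), stood at 64.8, 53.2 and 62.4 CPM in siCIP2A#1, siCIP2A#2 and siCIP2A#3, against 69.8, 72.9 and 68.7 CPM in mock, SCR#2 and SCR#3. All 3 silenced libraries lay below all controls, with siCIP2A#2 the lowest. The means were 60.1 ± 6.09 CPM in siCIP2A libraries and 70.5 ± 2.19 CPM in controls (SD, n = 3 each), and the log2 difference was -0.23 (SE 0.10, edgeR adjusted p = 0.999). Single differences were -0.12, -0.40 and -0.18 with siCIP2A#1, siCIP2A#2 and siCIP2A#3. Without siCIP2A#2 the group difference was -0.15. ULK1, the kinase that starts the process, was at 0.16, 0.48 and -0.10, and UVRAG, a partner of BECN1, at 0.04, 0.08 and 0.18. WIPI1, which binds the lipid that this complex makes, was at 0.06, 0.22 and -0.31. In ULK1 the mock, at 56.3 CPM, stood above SCR#2 and SCR#3, at 42.1 and 40.5 CPM.

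ATG16L1, which directs the conjugation of ATG8 proteins to lipid (chr2:233210051-233295674, plus strand), was the 1 member above all controls in every silenced library. It stood at 48.6, 48.8 and 54.5 CPM in siCIP2A#1, siCIP2A#2 and siCIP2A#3, against 44.4, 47.1 and 44.4 CPM in mock, SCR#2 and SCR#3. The margin over the highest control was small in siCIP2A#1 and siCIP2A#2, and the log2 difference was 0.16 (SE 0.10) for the group and 0.26 (SE 0.11, edgeR adjusted p = 0.605) for siCIP2A#3. Its partners in that conjugation lay close to the controls, ATG5 and ATG12 within 0.09 of 0 with each siRNA and the activating enzyme ATG7 at 0.19, -0.22 and -0.12.

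The ATG8 protein genes and the receptor did not pass the test. MAP1LC3B, which encodes LC3B, was at -0.14, 0.19 and -0.19 with siCIP2A#1, siCIP2A#2 and siCIP2A#3, and GABARAPL1 at 0.01, 0.12 and -0.37. SQSTM1, the receptor p62 that brings ubiquitinated cargo to LC3, had 1256, 1234 and 1035 CPM in siCIP2A#1, siCIP2A#2 and siCIP2A#3, against 1294, 1086 and 1079 CPM in mock, SCR#2 and SCR#3. Its siCIP2A#3 library was the lowest of the 6, at -0.16, and the mock the highest. How the authors counted reads shared with near copies, such as MAP1LC3B2 for MAP1LC3B, is not given, and values of such genes are uncertain, as are those of overlapping genes. In bulk RNA, fewer cells of a kind and less RNA per cell cannot be told apart.

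The E-box genes were next set beside the siRNA differences, as a description. With siCIP2A#2 all 8 members with CACGTG in the window were above 0, between 0.21 and 0.39 with a median of 0.30, whereas 18 of the 26 tested members without it were above 0, with a median of 0.09. The E-box members, CTSA, CTSD, GAA, NEU1, LAMP1, CD63, MCOLN1 and ATP6V0D1, were above 0 with siCIP2A#2 in all 10 alternatives run for it. Of all 1036 tested genes with CACGTG, 518 were above 0 with siCIP2A#2, with a median of 0.0002. With siCIP2A#1 4 of the 8 were above 0 (median 0.0053), and with siCIP2A#3 2 of 8 (median -0.05). The E-box members also differed within the controls: in non-targeting siRNA against mock 1 of 8 was above 0, with a median of -0.21, against 18 of 26 and a median of 0.08 for those without it. With the mock as a level of its own, 6 of 8 were above 0 with siCIP2A#1 (median 0.10), 8 of 8 with siCIP2A#2 (median 0.36) and 5 of 8 with siCIP2A#3 (median 0.02), so the counts for siCIP2A#1 and siCIP2A#3 depended on the mock.

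**Figure D5:**
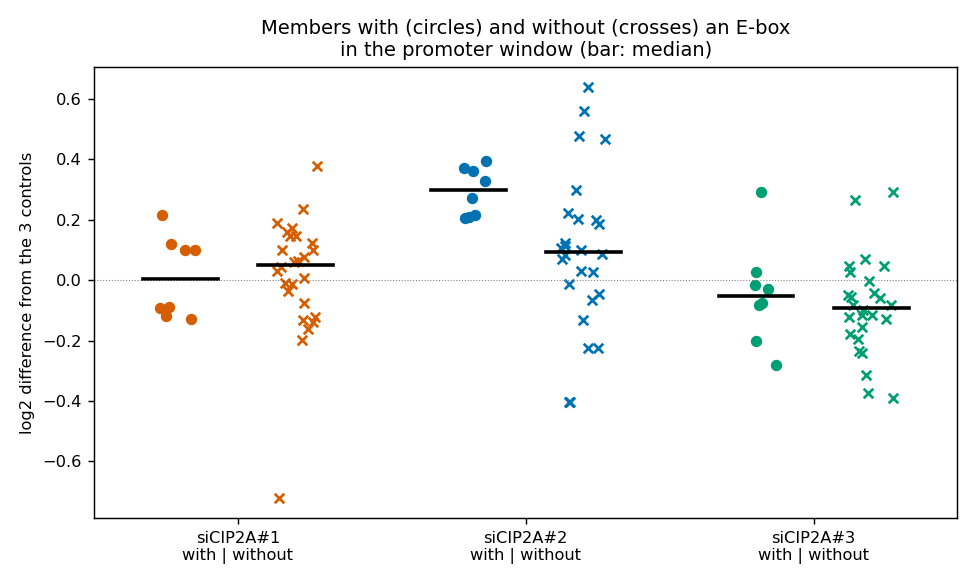
Log2 difference from the 3 controls for tested members with CACGTG (circles, 8 genes) and without it (crosses, 26 genes) in the promoter window. Each siRNA is shown apart, with black bars at the medians, and other E-box words were not searched. With siCIP2A#2 the circles lie between 0.21 and 0.39 around a median of 0.30, and with siCIP2A#1 and siCIP2A#3 they lie on both sides of 0.

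Within the controls, edgeR called no member for non-targeting siRNA against mock, where the share of all genes called was 0%, and neither did DESeq2 or limma-voom. At an unadjusted p under 0.05 there was 1 member, LAMP2, at a log2 difference of 0.29, against 6.31% of all genes. The mock lay outside the pair of non-targeting libraries for 34 members, against 80.5% of all genes.

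A further 150 genes of the same pathways were read as 7 lists, and 141 passed the filter. No gene of any list was called by edgeR with siCIP2A against control or with any single siRNA. DESeq2 called 2, ATP6V1G1 and EPG5, with siCIP2A#1 and 0 in the other 3 of these comparisons, and limma-voom called 0 in all 4. The counts of all genes that each tool called are given at the end. At an unadjusted p under 0.05, 3 were higher and 3 lower for the group (2.72% of all genes in either direction), and 9 were higher and 6 lower with siCIP2A#1 (9.95% of all genes). The counts were 17 higher and 3 lower for siCIP2A#2 (5.38% and 6.21% of all genes) and 1 higher and 5 lower for siCIP2A#3 (2.99% and 5.24%). As for the 43 genes, 97 of 141 were above 0 with siCIP2A#2 (68.8%, median 0.09) and 46 of 141 with siCIP2A#3 (32.6%, median -0.07), beside 85 of 141 with siCIP2A#1. By list, 13 of 14 further V-ATPase subunits were above 0 with siCIP2A#2, 25 of 34 further hydrolases, 16 of 24 further membrane and sorting genes, 12 of 14 fusion genes, 12 of 18 initiation genes, 10 of 16 genes of lysosomal mTORC1 control, and 9 of 21 genes of ATG8 conjugation and receptors. With siCIP2A#3 the counts were 7 of 14, 12 of 34, 12 of 24, 3 of 14, 4 of 18, 5 of 16 and 3 of 21, in the same order.

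Among the genes named from these lists, some lay on 1 side of the controls with every siRNA and others did not. The phospholipase gene PLA2G15 had 45.8, 47.7 and 36.6 CPM in siCIP2A#1, siCIP2A#2 and siCIP2A#3, against 34.6, 31.2 and 30.8 CPM in mock, SCR#2 and SCR#3. All 3 silenced libraries were above the controls, with log2 differences of 0.51, 0.57 and 0.19 (edgeR adjusted p = 0.209, 0.222 and 0.748). SMPD1, acid sphingomyelinase, was at 0.45, 0.55 and 0.15, also above 0 with each. ATP6V1G1, a stalk subunit of the V-ATPase, was at -0.53 with siCIP2A#1 (edgeR adjusted p = 0.118), 0.20 with siCIP2A#2 and 0.09 with siCIP2A#3. FNIP2, a partner of folliculin in mTORC1 control, was at 0.66 with siCIP2A#1 (edgeR adjusted p = 0.103), -0.14 with siCIP2A#2 and 0.31 with siCIP2A#3. EPG5, a tether in autophagosome fusion, was at -0.51, -0.13 and -0.20, and the mitophagy receptor BNIP3 at -0.39, -0.88 and -0.30, both below 0 with each siRNA. The mock held the highest BNIP3 level, at 61.8 CPM, against 37.9 and 41.4 CPM in SCR#2 and SCR#3. Of the rest named by the same rule, ATP6V0A1 was at -0.11, 0.41 and 0.11, WDR45 at 0.23, 0.51 and -0.05, WDR45B at -0.43, 0.13 and 0.07, TECPR1 at 0.47, 0.07 and -0.02, IGF2R at 0.34, 0.04 and -0.10, TMEM55B at -0.52, 0.24 and -0.21, MTOR at 0.09, -0.31 and 0.03, and BNIP3L at -0.08, -0.27 and -0.31 with siCIP2A#1, siCIP2A#2 and siCIP2A#3.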

How the data were processed

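RNA was measured in 6 libraries. The table that the authors deposited holds raw read counts, per the file headers, with no normalization. Per the submitters' processing notes, the tools were STAR 2.5.4b, Subread 1.5.1 and bcl2fastq 2.17, on the build hg38. Sources used here do not give the annotation, the strand setting or the treatment of multi-mapped reads. A spreadsheet had altered 51 symbols, of which the Entrez identifier restored 50. KIAA1524 and KIAA0226 were renamed CIP2A and RUBCN from RefSeq synonyms. Positions and exon lengths came from GENCODE 29, and promoter windows from RefSeq (GRCh38.p14).

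After filterByExpr at a minimum count of 10, 13562 genes were tested, with TMM scaling. edgeR 4.0.16 in R 4.3.3 (glmQLFit and glmQLFTest, robust) gave log2 differences and Benjamini-Hochberg adjusted p over all tested genes, called under 0.05. The group fit had 4 residual degrees of freedom, the fit with each siRNA as a level had 2, which come from the controls alone, and the fit for non-targeting siRNA against mock had 3. The last fit took its spread from the siCIP2A libraries as well as from SCR#2 and SCR#3. Standard errors are the log2 difference over the square root of F. Replicate numbers were not taken as pairs of libraries. Each number of a silenced library also stands for its siRNA, so the check on pairs cannot exclude shared handling. The fits for siCIP2A against control and for siCIP2A#1 were run on simulated counts. They recovered 56% and 34% of genes changed 1.5-fold, and 86% and 80% of those changed 2-fold. In the group simulation all 3 silenced libraries carried the same change. It therefore does not show what the group fit can find where the siRNAs differ. Libraries of 1 group differed by more than sampling noise, so none was a copy.

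The 43 members, the 7 further lists and the marker lists were chosen with earlier results of these data known. Given in full are members called in any comparison, the 4 with the smallest p in the group comparison and in each siRNA against control, and members whose groups do not overlap with a log2 difference of at least 0.2 in size; for each further list, up to 2 genes with the smallest p are named. MCOLN1, TFEB, SQSTM1 and the E-box grouping were picked out after their values were seen. Alternatives were RLE and upper quartile factors, DESeq2 1.42.0, limma-voom (limma 3.58.1), each library left out in turn, the mock as its own level, a block on the replicate number, no filter, and a filter of CPM 1 or more in 3 libraries.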

Additional observations from a re-analysis of the deposited data

Results flagged for a closer look

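PSAP differed between CIP2A siRNAs, by edgeR's test of the difference itself. The log2 difference between siCIP2A#1 and siCIP2A#2 was -1.16 (edgeR adjusted p = 0.0302), and that between siCIP2A#1 and siCIP2A#3 was -0.73 (edgeR adjusted p = 0.0414). Each siRNA is 1 library, so the siRNA and its library cannot be told apart. CIP2A RNA also differed between siCIP2A#1 and siCIP2A#2, at a log2 difference of -1.49 (edgeR adjusted p = 0.0302).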

How the results depend on the processing

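Gene-level results were compared for the members given in full and for CIP2A, which is not a member. Of these, 206 were as in the fit reported, 32 newly passed the test and 0 changed sign. The 2 that no longer passed were PSAP with siCIP2A#1, under RLE factors and under the stricter filter, where 0 members were called. CIP2A gave 12 of the 206 for siCIP2A against control and 10 with each siRNA, and 2 of the 32 for siCIP2A against control. For single siRNAs the alternatives include fits with 1 residual degree of freedom, which called more of all genes than the fit reported. Genes called with DESeq2 were 3 for siCIP2A against control, 76, 57 and 29 for siCIP2A#1, siCIP2A#2 and siCIP2A#3, 91, 147 and 100 for siCIP2A#1 against siCIP2A#2, siCIP2A#1 against siCIP2A#3 and siCIP2A#2 against siCIP2A#3, and 3 for non-targeting siRNA against mock. With no filter these counts were 3, 169, 109 and 44, then 156, 305 and 211, and 5. With edgeR as reported they were 0, 16, 10 and 1, then 2, 69 and 0, and 0, and with limma-voom they were 0, 23, 11 and 1, then 1, 80 and 0, and 0. With a level of its own for the mock, which leaves 1 residual degree of freedom from SCR#2 and SCR#3, 1810, 2997 and 1217 genes were called with the single siRNAs, and 2216, 2361 and 2946 between them. Members called were then 7, 20 and 6 with single siRNAs and 18, 11 and 22 between them. DESeq2 called 2 members with siCIP2A#1, with siCIP2A#2, and in siCIP2A#1 against siCIP2A#2 and against siCIP2A#3, beside 76, 57, 91 and 147 of all genes. No filter gave 2, 3, 2 and 2 members, beside 169, 109, 156 and 305 of all genes.

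With 1 library left out, genes called ranged from 0 to 1 for siCIP2A against control (1 without siCIP2A#2), 85 to 1896 for siCIP2A#1, 40 to 3088 for siCIP2A#2 and 32 to 1330 for siCIP2A#3. Between siRNAs the ranges were 101 to 2302 for siCIP2A#1 against siCIP2A#2, 213 to 2477 for siCIP2A#1 against siCIP2A#3 and 108 to 3026 for siCIP2A#2 against siCIP2A#3. Members called ranged from 2 to 7, 0 to 20 and 0 to 7 with siCIP2A#1, siCIP2A#2 and siCIP2A#3, and from 2 to 18, 1 to 12 and 0 to 22 between them in the same order. The highest count of each of these ranges but the first came without the mock. In fits with each siRNA as a level, leaving out any 1 control also leaves 1 residual degree of freedom. The member median ranged from -0.0321 (without siCIP2A#2) to 0.0645 for siCIP2A against control, 0.1185 to 0.1931 for siCIP2A#2 and -0.0033 to 0.0653 for non-targeting siRNA against mock. The count of members above 0 was 30 to 34 of 42 with siCIP2A#2 and 9 to 15 of 42 with siCIP2A#3 over the 10 alternatives each. For siCIP2A against control it was 16 (without siCIP2A#2) to 32 of 42 over the 14 alternatives.

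Correlations of same-numbered libraries were -0.117, -0.128 and 0.00761, so the numbers were not taken as pairs; with the replicate number as a block, 1 gene was called, CIP2A at -2.03 (edgeR adjusted p = 0.0345), and no member. With plain library totals in place of TMM, an alternative chosen after seeing the data, 4.31% of all genes lay above and 3.22% below all controls in every siCIP2A library, and siCIP2A#1 lay above for 16 members and below for 7, against 32.5% and 22.7% of all genes. Each siRNA has 1 library and a spread borrowed from 3 controls, so small differences of single members could be missed.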
